A study of Stylosanthes guianensis with 9 samples.

Results

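To investigate the first change in root tips of stylo (Stylosanthes guianensis, a tropical pasture legume) after germination, RNA levels at 48 h were compared with those at 24 h. The comparison took 28428 of the 54199 genes in the deposited table, namely those whose RPKM reached 1 in 3 or more of the 9 libraries of the series. RPKM is a read count scaled by gene length and library total. It used 6 of the 9 samples, with 3 replicates at 48 h and 3 at 24 h. The 3 samples at 72 h entered the fit only to help estimate the spread. Each library was made from root RNA of the genotype Reyan No. 2, and the series description specifies root tips. No treatment was stated for any library, so the 2 groups differed in their labels only by time. Whether the replicates were separate plantings is not stated in the labels, so the p-values here measure only how these samples vary, which may be technical.

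A root tip holds the root cap, the meristem in which cells divide, and the zone in which they elongate. During germination the young root first draws on messenger RNA and reserves laid down in the seed, and then replaces them with transcripts of growing root cells. The root cap also releases border-like cells, to which the series title refers. The genes were assembled components known by ID, and the files did not pair the IDs with gene names or sequences. No gene could thus be given a function, no marker of a tissue could be checked, and no sequence could be shown. In RNA from a whole root tip, fewer cells of a type and less RNA per cell cannot be told apart.

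The total was 35167050 to 37513982 reads per library at 48 h and 30591025 to 34589921 reads at 24 h. Among the 6 libraries, 24 h replicate 1 stood apart. It listed 3467 of the 28428 genes at 0, or 12.2%, whereas the other 5 libraries listed 175 to 429 of them at 0. In addition, 319 genes were read almost only in 48 h replicate 1, and 242 genes almost only in 24 h replicates 2 and 3. Both groups are described separately. The number of genes called changed is also given without 24 h replicate 1 and without 48 h replicate 1. Differences between pairs of libraries are also given without 24 h replicate 1. The classes of level and length, the shares of reads, the highest genes, the counts without overlap and the components rest on all 6 libraries.

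The results showed that more genes fell than rose between 24 h and 48 h. With limma, at a Benjamini-Hochberg adjusted p under 0.05, 592 genes rose at 48 h, which is 2.08% of the genes tested, and 1571 fell, which is 5.53%. A change of at least 2-fold was found in 343 rising genes (1.21%) and 1329 falling genes (4.67%). Differences were taken in log2(RPKM + 1), and for low genes this scale makes a change look smaller than it is. On the log2 scale the falls were also larger. The median difference was 1.11 on the log2 scale among rising genes, a 2.15-fold increase, and -1.68 among falling genes, a 3.20-fold decrease. Differences of at least 4 on the log2 scale were found in 11 rising and 90 falling genes. Over all genes tested, the median difference was 0.0046, with 90% of the genes between -1.26 and 0.85, so the middle of the distribution lay close to 0 while its lower tail was the longer.

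**Figure D1:**
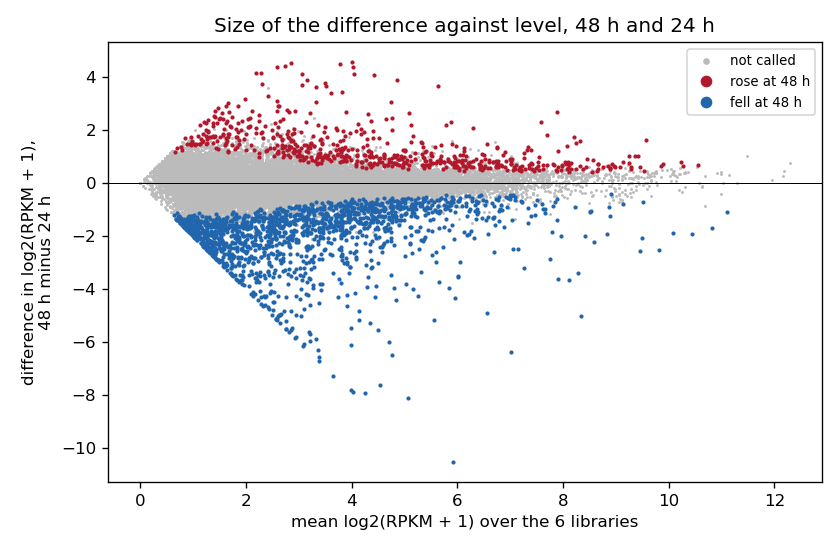
Each point is 1 of 28428 genes, with its mean level over the 6 libraries on the x axis and the difference in log2(RPKM + 1), 48 h minus 24 h, on the y axis. Red points are the 592 genes that rose and blue points the 1571 that fell; the blue points reach -10.54 and the red points 4.55.

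All libraries of 48 h lay above all libraries of 24 h in 3570 genes (12.6%), and all lay below in 4906 genes (17.3%). Every called gene was among these. The count of called genes depended on the libraries in the fit. Without 48 h replicate 1, 2 or 3 it was 1006, 1101 or 1147, and without 24 h replicate 3 it was 1368. Without replicate 1 of both times, it was 628, with 113 rising and 515 falling. A set of 941 genes was called in the same direction in each of the 6 fits that left out a library, with 190 rising and 751 falling. They made up 32.1% of the rising and 47.8% of the falling genes. Their median difference was 1.73 for the rising and -2.32 for the falling genes on the log2 scale. More genes fell than rose in each of the 24 alternative fits.

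The 4 genes named here had the largest differences in mean RPKM among called genes, with 2 in each direction. The largest rise was found in c10791_g1. Its RPKM was 1459, 1214 and 1319 in 48 h replicates 1 to 3, against 434.0, 437.2 and 426.4 at 24 h. The lowest library at 48 h was thus far above the highest at 24 h, and the 24 h values hardly differed from each other. On average the level was 1331 ± 123 at 48 h and 432.5 ± 5.54 at 24 h (SD, n = 3 each), a 3.08-fold increase. The difference was 1.62 on the log2 scale with a standard error of 0.162 (limma, adjusted p = 0.000263). By level it was gene number 28 at 48 h and number 188 at 24 h among the genes tested, and its component held no other tested gene.

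The second rising gene, c32303_g9, was abundant at both times and its increase was small. Its RPKM was 1946, 1928 and 1802 in the 48 h libraries, against 1121, 1310 and 1132 in the 24 h libraries. The groups did not overlap, and the difference was 0.67 on the log2 scale with a standard error of 0.130 (limma, adjusted p = 0.0117). The call was the least stable of the 4. It was lost in 5 of the 6 fits without a library, with adjusted p-values from limma between 0.0502 and 0.0939 in these 5 fits. It was also lost with a pseudocount of 0.01, without the intensity trend, with a minimum fold of 1.5 and without replicate 1 of both times. None of the 7 other tested genes of its component was called.

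The largest fall was found in c1697_g1, which nearly disappeared. Its RPKM was 0.599, 0.605 and 0.520 in the 48 h libraries, against 2720, 2139 and 2219 in the 24 h libraries. By level it was gene number 27162 at 48 h and number 10 at 24 h. The mean was 0.575 ± 0.0474 at 48 h and 2359 ± 315 at 24 h (SD, n = 3 each), a 4107-fold decrease in mean RPKM. The difference in log2(RPKM + 1) was -10.54 with a standard error of 0.162 (limma, adjusted p = 9.41e-10). Its size depended on the pseudocount, since it was -11.77 with 0.1 and -11.97 with 0.01 in place of 1. The values at 48 h came from 22 to 24 reads per library, against 77081 to 93854 reads at 24 h, so that the 48 h reads were 0.0272% of the 24 h reads. In genes read almost only in 48 h replicate 1, libraries with traces of them held 0.239% to 0.266% of its reads. Whether the remaining reads of c1697_g1 at 48 h were such traces was not tested.

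The gene c31686_g8 fell less steeply but was among the most abundant genes at both times. Its RPKM was 943.5, 1068 and 1003 in the 48 h libraries, against 3373, 3364 and 2973 in the 24 h libraries. The groups lay far apart relative to their spread, with means of 1005 ± 62.1 at 48 h and 3237 ± 228 at 24 h (SD, n = 3 each). This was a 3.22-fold decrease with a log2 difference of -1.69 and a standard error of 0.191 (limma, adjusted p = 0.000566). It held 0.190% of the reads on average at 48 h and 0.611% at 24 h. Of the 10 other tested genes of its component, 2 also fell and none rose. Such genes may share sequence, and reads may then be split between them.

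**Figure D2:**
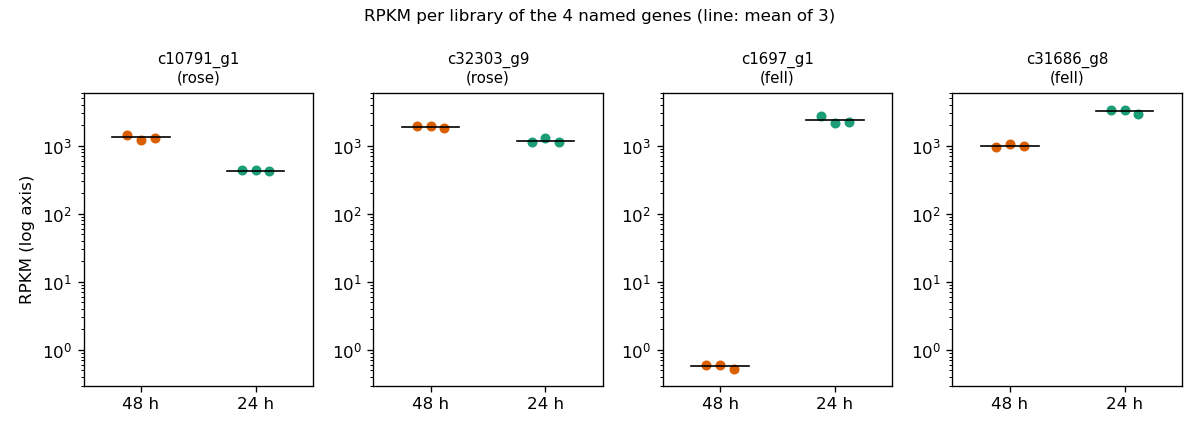
RPKM on a log axis in the 3 libraries of 48 h (orange) and of 24 h (green) for the 4 named genes, with a line at the mean of 3. The libraries of both times do not overlap in any of the 4 genes; c1697_g1 lies below 0.61 at 48 h and above 2139 at 24 h.

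The proportion of called genes was related to the level of the gene. In the 2193 genes with a mean RPKM of 50 or more over the 6 libraries, 186 rose (8.48%) and 187 fell (8.53%), so both directions were about equally frequent. In the 8308 genes with a mean of 10 to 50, 207 rose (2.49%) and 569 fell (6.85%). In the 11237 genes with a mean of 2 to 10, 171 rose (1.52%) and 636 fell (5.66%). In the 6690 genes below 2, only 28 rose (0.419%) and 179 fell (2.68%). The excess of falling genes was therefore found in genes with a mean below an RPKM of 50. Low genes were also those in which 24 h replicate 1 differed most. It listed 44.1% of the genes below 2 at 0, 4.56% of those from 2 to 10 and none of those at 50 or more. Among called genes, the median difference was 0.72 for rising and -1.21 for falling genes at 50 or more. It was 1.05 and -1.48 from 10 to 50, 1.69 and -1.96 from 2 to 10, and 1.48 and -1.60 below 2. Smaller changes can be called where the spread is smaller, and the median SD at 48 h was 0.115 at 50 or more and 0.229 from 2 to 10. Over all genes of a class, called or not, the median size of the difference was 0.274 at 50 or more. In the lower classes it was 0.232 from 10 to 50, 0.339 from 2 to 10 and 0.386 below 2.

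The length of the gene, recovered with its reads as the smallest that gives whole reads, was similar in rising and falling genes. The median was 1169 nucleotides in rising genes, 1234 in falling genes and 1172 in all genes tested. Calls were less frequent at both ends. In genes shorter than 500 nucleotides 1.16% rose and 3.39% fell, and in genes of 2000 or more 1.36% rose and 4.58% fell. Between 1000 and 2000 nucleotides 2.83% rose and 6.76% fell. Short genes had fewer reads at a given RPKM, and their median SD between libraries was 0.345 at 48 h and 0.578 at 24 h on the log2 scale. In genes of 2000 or more it was 0.169 at 48 h and 0.209 at 24 h. Of the genes shorter than 500 nucleotides, 24 h replicate 1 listed 33.5% at 0, against 0.693% of those of 2000 or more. The part of these zeros in the spread at 24 h was not tested.

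**Figure D3:**
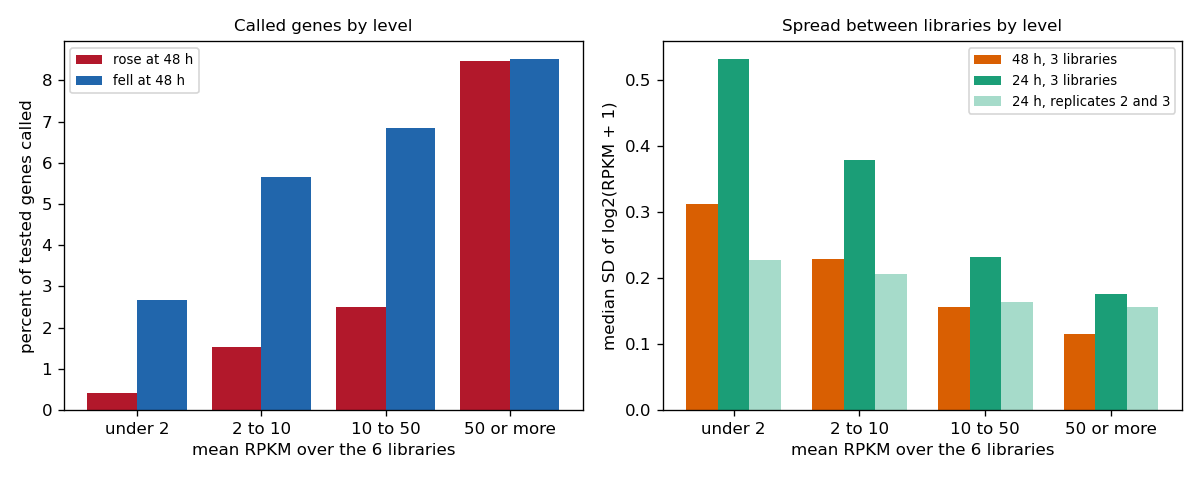
Left, percent of the tested genes that rose (red) or fell (blue) at 48 h in 4 classes of mean RPKM; the bars are nearly equal at 50 or more (8.48% and 8.53%), and their ratio is largest below 2 (0.419% and 2.68%). Right, median SD of log2(RPKM + 1) over the 3 libraries of 48 h (orange), the 3 of 24 h (dark green) and 24 h replicates 2 and 3 alone (light green), in the same classes; an SD over 2 libraries has a lower median than one over 3, so the light green bars cannot be compared with the others.

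As shares of reads, which are not scaled by gene length, the rising genes held 7.13%, 6.68% and 7.24% of the reads in the 48 h libraries, against 3.65%, 4.11% and 3.89% in the 24 h libraries. The falling genes held 3.68%, 3.56% and 4.02% at 48 h, against 12.9%, 10.7% and 11.3% at 24 h. These shares describe the genes that were called and are not a separate test. The share lost by falling genes was larger than the share gained by rising genes. The tested genes that were not called held 84.7%, 89.4% and 88.3% of the reads at 48 h, and 83.0%, 84.4% and 84.0% at 24 h. Summed over genes, the difference in RPKM had the same order, with 27513 for the rising and -59486 for the falling genes. Per gene, the median difference in RPKM was 15.7 among rising genes and -10.8 among falling genes. Rising genes also had the higher level, with a median of 20.8 in mean RPKM over the 6 libraries, against 9.20 in falling genes. A difference of at least 100 in mean RPKM was found in 70 rising genes, or 11.8% of them, and in 86 falling genes, or 5.47%. A difference of at least 1000 was found in 10 falling genes and no rising gene.

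Among the 100 genes with the highest mean RPKM at each time, 75 were shared, which is 75% of each list. Of the 100 highest genes at 48 h, 15 had risen and 3 had fallen, while of the 100 highest at 24 h, 5 rose and 19 fell. Most of the abundant transcripts were therefore common to both times.

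To describe the more complete changes, genes were counted that had at least 50 reads in each library of one time and at most 3 in each library of the other, leaving the genes read in particular libraries aside. A total of 70 genes were read at 24 h and nearly unread at 48 h, whereas 5 genes were read at 48 h and nearly unread at 24 h. Among the 70 genes, 46 had no read in any 48 h library. The 70 genes held 21, 23 and 21 reads in the 48 h libraries in all, against 57388, 43036 and 56038 reads in the 24 h libraries. By the way they were chosen, all 3 libraries of 24 h held these genes, and the highest 24 h level of a gene was 1.60 times its lowest as a median. Their mean RPKM at 24 h lay between 1.70 and 254.4 with a median of 7.97, and 32 of them reached 10. Against a floor of 3 reads per library, they were at least 18.9-fold lower at 48 h, with a median bound of 116-fold. They were 226 to 3191 nucleotides long and came from 67 components. Of the 70 genes, 69 were among the genes tested, and all 69 were called, which their choice by reads at both times favours.

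The most abundant of the 70 genes had 0, 3 and 0 reads in the 48 h libraries, against 3938, 2815 and 3110 reads in the 24 h libraries. The next one had no read at 48 h and 9435, 5403 and 8362 reads at 24 h. The third had 1, 0 and 0 reads at 48 h, against 2047, 2420 and 2094 reads at 24 h. In each of these genes the loss was nearly complete in every 48 h library.

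The 5 genes with the opposite behaviour were low genes, with a mean RPKM of 2.34 to 8.11 at 48 h. The highest by RPKM had 107, 89 and 149 reads in the 48 h libraries, against 3, 0 and 1 reads in the 24 h libraries. The longest, of 1975 nucleotides, had 188, 99 and 215 reads at 48 h and none at 24 h. Against the floor of 3 reads per library, the 5 genes were at least 33.2-fold higher at 48 h. The counts of both kinds depended on the limits, which were varied after the data had been seen. With at most 10 reads in place of 3, 152 genes were nearly unread at 48 h and 18 at 24 h. With 0 reads in place of 3 the counts were 46 and 1, and with at least 200 reads in place of 50 they were 38 and 0. Leaving out 24 h replicate 1 gave 102 and 7. Without 24 h replicate 2 or 3, the genes nearly unread at 24 h numbered 9 or 14. The genes nearly unread at 48 h were the more numerous in each of these counts.

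**Figure D4:**
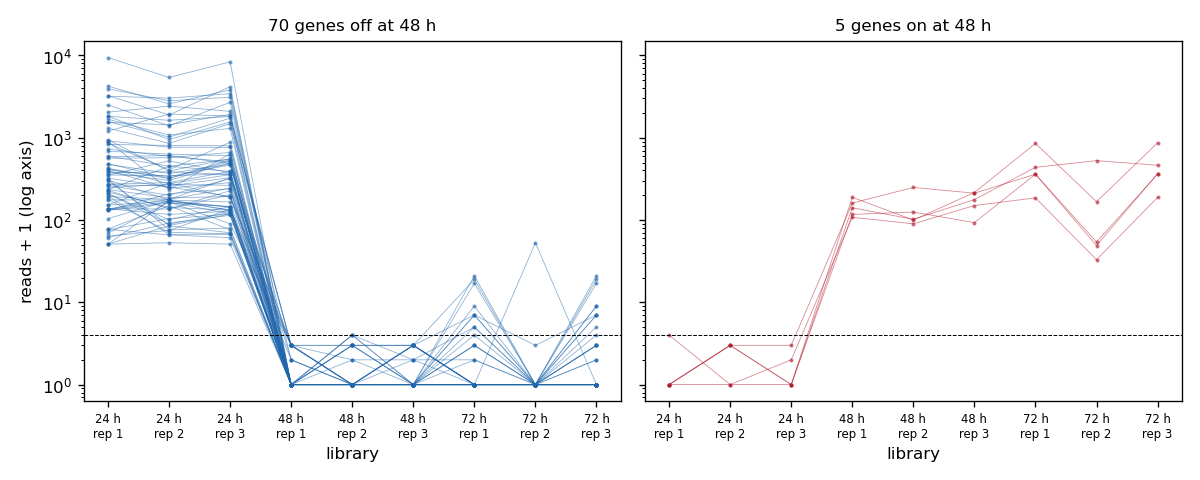
Reads plus 1 on a log axis in each library for the 70 genes nearly unread at 48 h (left) and the 5 genes nearly unread at 24 h (right); each line is 1 gene and the dashed line marks 3 reads. The 70 genes had at most 52 reads in any library of 72 h. 72 h replicate 3 nearly repeats replicate 1.

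The spread between libraries was then compared with the size of the change. For each pair of libraries, the median size of the difference in log2(RPKM + 1) was taken over the 28428 genes. For the 6 pairs of a 48 h library with 24 h replicate 2 or 3, it lay between 0.306 and 0.379. The pairs within 48 h lay between 0.211 and 0.284, and 24 h replicates 2 and 3 differed by 0.271. The pairs across times were thus farther apart than the pairs within a time, but by a small margin. With 24 h replicate 1, the 3 pairs across times lay between 0.566 and 0.595, and the 2 pairs within 24 h at 0.399 and 0.468. A difference of at least 2-fold was found between times in 10.7% to 14.0% of the genes in pairs without 24 h replicate 1. Within a time it was found in 2.72% to 4.83% of the genes at 48 h and in 4.93% between 24 h replicates 2 and 3.

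**Figure D5:**
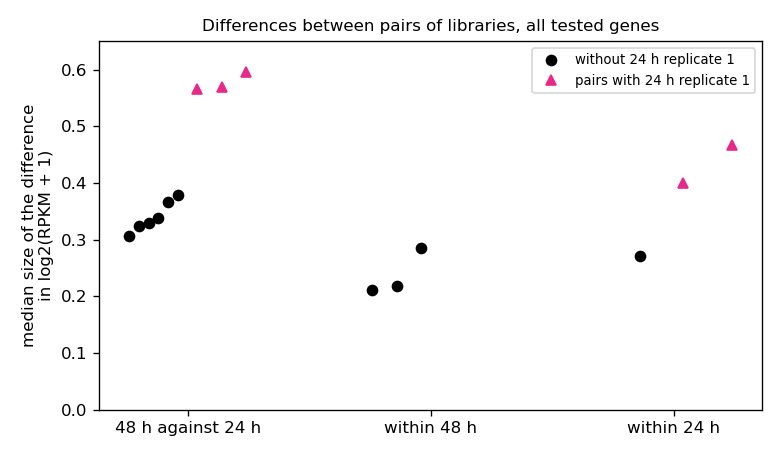
Median size of the difference in log2(RPKM + 1) over 28428 genes for each pair of libraries, for pairs across times, within 48 h and within 24 h. Black points leave out 24 h replicate 1 and lie between 0.306 and 0.379 across times and at most at 0.284 within a time; pink triangles are the pairs with 24 h replicate 1.

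The median SD per gene was 0.206 over the 48 h libraries and 0.325 over the 24 h libraries on the log2 scale. An SD over 2 libraries has a lower median than one over 3, so the 0.191 over 24 h replicates 2 and 3 cannot be set beside these values. Taken as a pair, these replicates differed by 0.271, more than 2 of the 3 pairs within 48 h (0.211 and 0.218). An SD above 1 was found in 58 genes at 48 h and in 1447 genes at 24 h, and 577 of the genes with such a spread at 24 h were listed at 0 in 24 h replicate 1. In genes with a mean RPKM of 10 or more, the median SD was 0.147 at 48 h and 0.220 at 24 h.

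Of the 3467 tested genes that 24 h replicate 1 listed at 0, 76 rose and none fell. A gene at 0 there cannot lie above 48 h, so the lack of falls was largely set by this choice of genes. These 76 were 12.8% of the rising genes, close to the 12.2% of all genes tested that were at 0 in this library. Most of the 3467 genes were low, with a median RPKM of 1.26 at 48 h and 1.12 over 24 h replicates 2 and 3. Without this library, the fit called 40 of them as rising and none as falling. Here the filter also hinders falls, since a gene that reaches an RPKM of 1 only in 24 h replicates 2 and 3 does not pass it. The fit without 24 h replicate 1 called 1498 genes, with 373 rising and 1125 falling. Of these calls, 1427 were shared in direction with the fit of all libraries. Rising genes made up 24.9% of the called genes in the fit without the library, against 27.4% in the fit of all libraries. The excess of falling genes was thus present without this library.

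The place of 24 h replicate 1 among the 24 h libraries was also counted, as a description. It was the lowest of them in 62.0% of the rising genes, against 65.3% of all tested genes with a higher mean at 48 h, so it was lowest no more often in the rising genes. It was the highest 24 h library in 58.7% of the falling genes, against 51.4% of all tested genes with a lower mean at 48 h.

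The 319 genes were those with 200 or more reads in 48 h replicate 1 that made up 95% or more of their reads over 8 libraries (72 h replicate 3 left out). They took up 4.26% of its reads. Of them, 1 passed the filter and was tested, and it was not called. Its RPKM was 754.1 in 48 h replicate 1, 2.02 and 1.77 in 48 h replicates 2 and 3, and 2.56, 0 and 0 in the 24 h libraries. The log2 difference of 3.597 had an adjusted p of 0.317 from limma. The 319 genes were long, with a median of 2818 nucleotides and quartiles of 1219 and 5579, and the longest had 50352. By comparison, the 24576 genes with at least 200 reads summed over the 6 libraries had a median of 1394 and quartiles of 837 and 2115. Reads of the 319 genes were also found as traces, with 3951 and 4021 reads in 48 h replicates 2 and 3 and 3619 reads in 24 h replicate 1, but none in 24 h replicates 2 and 3.

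The 242 genes were those with 200 or more reads, 99% or more of them in 24 h replicates 2 and 3 and 50 or more in each. None passed the filter. They had 101515 and 161956 reads in these libraries, which is 0.318% and 0.469% of the reads of each. In 48 h replicates 1 to 3 they had 4, 3 and 0 reads, and in 24 h replicate 1 they had 3. These genes were short, with a median of 263.5 nucleotides and quartiles of 202 and 335. Their median RPKM was 35.9 in 24 h replicate 2 and 51.8 in replicate 3. In recovered length the groups thus lay on opposite sides of the other genes. How far the recovery shortened the 242 genes was not tested. What these genes are was not tested. Rescaling the libraries without the reads of both groups gave 614 rising and 1527 falling genes.

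At the level of the whole library, 3 measures were compared, and none could have passed 0.05 with 3 against 3 samples. The number of genes that reached an RPKM of 1 was 27362, 25812 and 27345 at 48 h, against 25846, 27098 and 27851 at 24 h. The groups overlapped, and an exact 2-sided permutation test gave p = 0.9, where 0.1 is the smallest p that 3 against 3 samples allow. This count depended on the level. The number of genes that reached an RPKM of 5 was 15150, 14393 and 15536 at 48 h, against 16363, 15752 and 16199 at 24 h. All 48 h libraries were then below all 24 h libraries, with a mean difference of -1078 genes (exact 2-sided permutation test, p = 0.1). The number of genes that together held 50% of the reads was 1089, 776 and 1225 at 48 h, against 1191, 1147 and 1306 at 24 h (exact 2-sided permutation test, p = 0.3). The 100 highest genes of each library held 18.7%, 26.6% and 16.6% of the reads at 48 h, against 18.7%, 19.8% and 17.1% at 24 h (exact 2-sided permutation test, p = 0.8). Adjusted by Benjamini-Hochberg over the 3 measures, with the count at an RPKM of 1, each permutation p was 0.9. In both of the measures of concentration, 48 h replicate 2 lay farthest from the other libraries.

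The reads of this library were concentrated in 2 genes of 1 component, which held 7.01% and 5.70% of them. The first was the gene with the highest mean RPKM, with 4978, 22030 and 2505 in the 48 h libraries, against 3391, 7677 and 2156 in the 24 h libraries. Replicate 2 was the highest at each time, and the groups overlapped. The second gene had 3219, 12780 and 1582 at 48 h, against 1947, 3627 and 1135 at 24 h, with the same order of libraries. Neither was called, with log2 differences of 0.76 (standard error 0.796, adjusted p = 0.685 from limma) and 1.01 (standard error 0.758, adjusted p = 0.547 from limma). Together with the other genes of their component they were left out in a count chosen after the data had been seen. The number of genes holding 50% of the reads was then 1188, 1188 and 1276 at 48 h, against 1257, 1292 and 1348 at 24 h. The share of the 100 highest genes became 16.4%, 16.1% and 15.5% at 48 h, against 17.3%, 16.6% and 16.2% at 24 h. The libraries of a time then lay close together, and the difference in this share turned from 2.13 to -0.67 percentage points.

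Genes of the same assembled component were compared in direction. The tested genes came from 16293 components, of which 5110 had at least 2 tested genes. In these, 6.69% of the 17245 genes were called, against 9.02% of the 11183 genes that were alone in their component. A total of 246 components had at least 2 called genes. In 164 of them all called genes fell, in 38 all rose, and in 44 they went in both directions. These counts cover only the components with at least 2 called genes, and most called genes of the whole comparison fell, so a shared direction is frequent in any case. As such genes may share sequence, they cannot be taken as independent of each other.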

How the data were processed

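The study's authors deposited RPKM values for 54199 genes, with 1 column for each of the 9 libraries. The submitters' processing notes name HTSeq 0.6.0 for counting, while neither an aligner nor an assembly was named, so that both are not given in the sources used here. All 9 columns were matched to samples by their labels. The genes, lists and tests were chosen with earlier results of these data known.

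Because RPKM steps by what 1 read is worth, library totals and gene lengths up to 100000 nucleotides were computed that turn the entries into whole reads (tolerance 1e-08 reads, or 1e-12 relative), which succeeded for all 54199 genes. The smallest such length was taken, so the length and reads of a gene can both be too low by a common factor. Genes read in few libraries are the most exposed to this. The recovered reads came to 99.83% to 99.94% of the library totals. The recovery and the fit were also run on simulated data built from the values of these libraries, and no result here rests on that. The simulation of the recovery drew the reads of a gene for all libraries alike. It therefore did not cover genes read in few libraries. The difference between 72 h replicates 1 and 3 was below sampling noise (mean chi-square per gene 0.0473, against 43.3 to 158.2 for other replicate pairs, over genes with at least 20 reads in a pair), and they were averaged and counted as 1 sample.

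The test was limma (version 3.58.1, R 4.3.3) applied to log2(RPKM + 1). A single fit took 8 samples with an intensity trend, without a replicate block, and p-values were adjusted by Benjamini-Hochberg over 28428 genes. Genes with an adjusted p under 0.05 were called changed. Named genes were the 2 rising and 2 falling called genes with the largest difference in mean RPKM, no overlap between times and no place among the genes read almost only in particular libraries. As the table has no gene names, no gene list was matched. Single values were tested by exact permutation in SciPy 1.17.1. The fit was repeated under 24 alternatives, 2 of them chosen after seeing the data.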

Additional observations from a re-analysis of the deposited data

How the results depend on the processing

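More genes fell than rose under all 24 alternatives, but their number varied. A total of 2163 genes were called, and 1672 of them at least 2-fold. A pseudocount of 0.01 gave 1161 and 871, a minimum fold of 1.5 gave 728 and 728, and leaving out replicate 1 of both times gave 628 and 618. Leaving out each of the 6 libraries in turn gave 1006 to 1807 called genes and 928 to 1415 at least 2-fold, and leaving out 72 h replicate 2 gave 3144 and 2119. Only the 24 h and 48 h samples gave 3162 called genes. The share of rising genes was 27.4%. It was 30.0% with a pseudocount of 0.1, 32.8% with 0.01, 33.4% with a filter at an RPKM of 5, 29.7% with all 9 columns and 21.1% without the intensity trend. It was 34.8% after median rescaling, 37.4% after quantile normalization and 32.5% after trimmed mean scaling, which moved the median difference of all genes by at most 0.08. It was 15.9% with the minimum fold, 18.0% without replicate 1 of both times. It was 25.3% with only genes read in 24 h replicate 1, which left out 76 rising calls and no falling one, since a gene at 0 there cannot lie above 48 h. Without 1 library it was 20.3% to 32.9%, and 29.5% without 72 h replicate 2. The fits with only genes read in 24 h replicate 1 and without 72 h replicate 2 were chosen after seeing the data. Samples sharing a number had deviations that correlated at 0.0002, 0.22 and 0.16. Samples with unlike numbers correlated between -0.246 and 0.079, so the values of replicates 2 and of replicates 3 lay above this range. A pairing was not established by these values, and the replicate block gave 2217 genes and a rising share of 30.7%. The cause of these changes was not tested.

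The difference in detected genes of -92 (48 h minus 24 h) became 3384 at an RPKM of at least 0.1, -1078 at an RPKM of at least 5, where the times did not overlap, and 576 at 10 reads after thinning, and -634.8 to 421.8 without 1 library (421.8 without 48 h replicate 2, 367.7 without 24 h replicate 3). The difference in genes holding 50% of the reads was -282.2 to -57.7 without 1 library. The difference in the share of the 100 highest genes of 2.13 became -0.67 without the component of the highest gene and -0.85 to 4.15 without 1 library (-0.85 without 48 h replicate 2). Genes nearly unread at 48 h and 24 h numbered 70 and 5. They were 46 and 1 with 0 reads as the limit, 152 and 18 with 10, and 38 and 0 with at least 200 reads at the other time. Without 1 library they were 75 to 102 and 5 to 14. Of 96 values of the named genes under alternatives, 87 kept their call and 9, all of c32303_g9, lost it, and none changed direction.

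With 3 against 3 samples no permutation p can be under 0.1. 24 h replicate 1 had the fewest reads of the 6 libraries, 30591025, and the part of depth in its genes listed at 0 was not tested.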

Other observations

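The 72 h libraries were not part of the comparison, and the levels of its genes there are given as values. The 592 genes that rose had a median RPKM of 8.89, 11.69 and 10.96 in the 24 h libraries, 29.4, 28.8 and 30.3 in the 48 h libraries, and 27.9 and 24.7 in 72 h replicates 1 and 2. The 1571 genes that fell had 17.4, 13.9 and 14.3 at 24 h, 2.45, 2.40 and 2.73 at 48 h, and 2.37 and 1.57 at 72 h. 72 h replicate 2 listed 578 of the falling genes at 0, and 18.0% of all tested genes, so its low value cannot be told apart from the loss of low genes in this library.

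Of the 70 genes nearly unread at 48 h, 60 had at most 3 reads in each library of 72 h, and none had 50 or more in both replicate 1 and replicate 2. All 5 genes nearly unread at 24 h were read at 72 h, with 185 to 853 reads in replicate 1 and 32 to 526 in replicate 2. The gene c1697_g1 had an RPKM of 0 and 0.249 in 72 h replicates 1 and 2, and c10791_g1 had 1451 and 961.9.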
